A study of Bos taurus with 6 samples.

Results

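The miR-34 and miR-449 miRNAs of cattle were described in primary bovine myoblasts treated with resveratrol (RSV) or with its solvent. The members were taken by name from the miRNA part of the deposited table, as each row called bta-miR-34 or bta-miR-449 followed by a letter. This gave 6 of the 765 miRNAs, namely bta-miR-34a, bta-miR-34b, bta-miR-34c, bta-miR-449a, bta-miR-449b and bta-miR-449c. The rule has 7 names, and bta-miR-449d was not analysed here. The family was selected on the RSV and DMSO group means of these same miRNAs, in which bta-miR-34c and bta-miR-34a stood higher in RSV, so the difference between the groups is described for the members and was not tested.

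As background, miRNAs are short RNAs that guide the Argonaute proteins to mRNAs, and the bases near their 5′ end, the seed, decide most of the pairing. The miR-34 and miR-449 miRNAs are grouped as a family because their seeds are alike. The miR-34 genes are among the best known miRNA genes switched on by the tumor suppressor p53, and the miRNAs hold back proteins of the cell cycle and of survival. The miR-449 miRNAs are known above all from epithelia with motile cilia, where they are abundant.

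Neighbouring genes show how the members are arranged. In the genes that RefSeq places on the ARS-UCD2.0 assembly, MIR34B and MIR34C follow each other directly and lie within both BTG4, a gene of an antiproliferative protein, and HOATZ, a gene needed for motile cilia. MIR449A, MIR449B and MIR449C follow each other within CDC20B, between the protein-coding genes MCIDAS, which encodes multicilin, a regulator of multiciliated cells, and GPX8. MIR34A lies apart from both clusters, within GPR157. MIR449D lies within NAV2, away from the other miR-449 genes.

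The cells were primary myoblasts from the longissimus dorsi muscle of fetal beef cattle, grown for 4 days in differentiation medium. The RSV group comprised 3 cultures with 20 μM RSV dissolved in DMSO, and the DMSO group comprised 3 cultures with the solvent alone, so that both groups received DMSO. The study's methods name independent experiments for the cell collections but not how many fetuses gave cells, so a spread between cultures may be smaller than that between animals. The whole culture was sequenced, hence a change in the kind of cells and a change within a cell cannot be told apart.

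The table holds 1 value per miRNA and group, the authors' mean over the libraries of reads divided by the size factor of the library, which scales for depth. Such values are called normalized reads here. Each mean has 10 places, so the whole reads of the 3 libraries behind it could be searched for. For 542 of 574 RSV means and 575 of 575 DMSO means above 0 and up to 1000 normalized reads, exactly 1 combination of whole reads gave the mean, and no mean was left without a combination. The recovered size factors were 1.54, 1.29 and 0.935 for the RSV libraries and 0.922, 0.823 and 0.729 for the DMSO libraries, and libraries are named by them because no replicate number is attached to them. Summed over all miRNAs, the group means were lower in RSV than in DMSO, by a log2 ratio of −0.15. The reads of single libraries were settled in both groups for bta-miR-34b, bta-miR-449a, bta-miR-449b and bta-miR-449c, in DMSO alone for bta-miR-34c, and in neither group for bta-miR-34a.

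The members spanned a wide range of levels. By the mean of both groups, bta-miR-34a ranked 96 among the 765 miRNAs, bta-miR-34c ranked 133, bta-miR-449a ranked 222, bta-miR-34b ranked 406, bta-miR-449b ranked 470 and bta-miR-449c ranked 473. The authors' mean of bta-miR-34a was 3552 normalized reads in RSV and 2585 in DMSO, which is 63.9% and 72.0% of the sum over the 6 members. For bta-miR-34c the shares were 32.8% in RSV and 24.0% in DMSO, and for bta-miR-449a 3.06% and 3.60%. Mature miRNAs have nearly the same length, so these levels need no correction for length, but the ligation steps of library preparation can favour some sequences and this was not tested.

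Members of the same gene cluster stood far apart. The level of bta-miR-34c was 173 times that of its neighbour bta-miR-34b in RSV and 143 times in DMSO. Likewise, bta-miR-449a stood at 50.8 times bta-miR-449b and 49.9 times bta-miR-449c in RSV, and at 41.4 and 43.8 times in DMSO. In the DMSO libraries, the lowest value of bta-miR-34c, 758, lay above the highest of bta-miR-449a, 145, whose lowest value, 115, lay above the highest of bta-miR-34b, 11.0. The order below bta-miR-34b was not resolved. In DMSO the libraries of bta-miR-34b, bta-miR-449b and bta-miR-449c overlapped, and in RSV bta-miR-34b was above bta-miR-449c in 3 of 3 libraries while bta-miR-449c and bta-miR-449b overlapped.

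**Figure D1:**
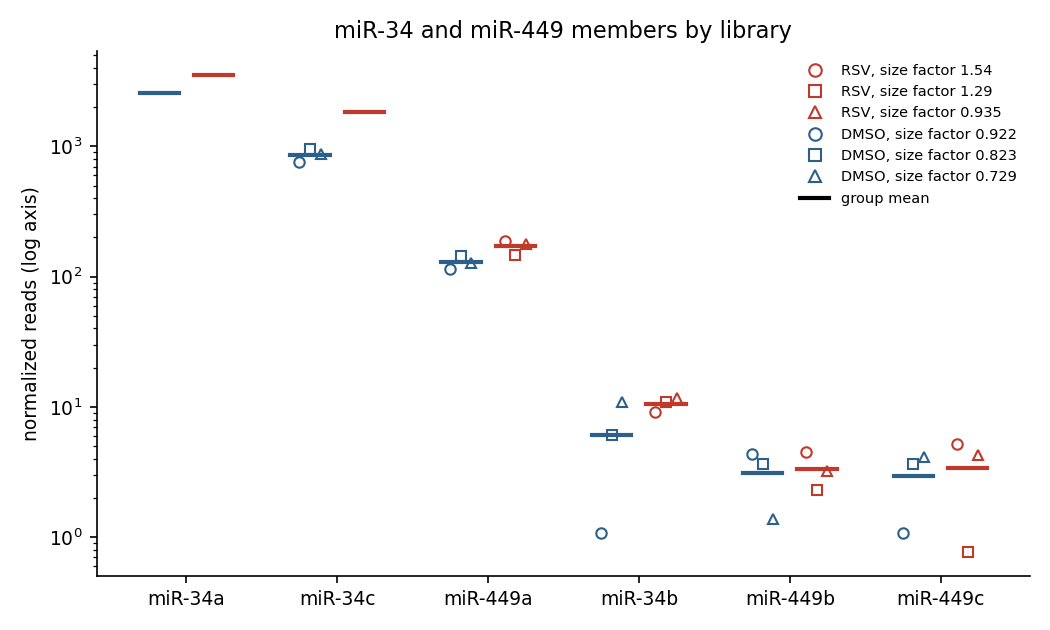
Normalized reads (log axis) of each member, with DMSO in blue and RSV in red. Bars are the authors' group means and symbols are single libraries, 1 shape per size factor, shown where whole reads were settled. The RSV bar lies above the DMSO bar for each of the 6 members, and the libraries overlap for bta-miR-34b, bta-miR-449b and bta-miR-449c.

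bta-miR-34c, the abundant product of the MIR34B and MIR34C pair, differed most between the groups. Its DMSO libraries held 699, 789 and 636 reads, which are 758, 958 and 873 normalized reads (mean 863 ± 100, SD, n = 3). The authors' mean in RSV was 1822 normalized reads, 2.11 times the DMSO mean, with a log2 ratio of 1.08 on the scale log2(normalized reads + 1). Counting error alone gives this log2 ratio a 95% binomial interval from 1.01 to 1.15. The spread between DMSO libraries was wider than counting error, since the lowest DMSO library had a 95% Poisson interval from 703 to 816 and the highest one from 892 to 1027.

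The RSV libraries of bta-miR-34c were not settled, as 89 combinations of whole reads gave its mean. In 22 of them each RSV library was above the highest DMSO library, and in 67 at least 1 RSV library was not. The overlapping combinations were all uneven, with the highest RSV library at 2.80 times the lowest or more. For comparison, of 71 other miRNAs with settled RSV reads and 100 or more normalized reads in the RSV mean, 68 had a highest library at no more than 2 times the lowest, and 1, bta-miR-451, exceeded 2.80 times. Among the 9 combinations with a ratio of up to 2, the lowest RSV library lay between 1340 and 1679 normalized reads. The group mean thus does not settle the single RSV values, and, from the mean alone, their separation from the DMSO libraries rests on the 3 RSV libraries being about as even as those of most other miRNAs.

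**Figure D2:**
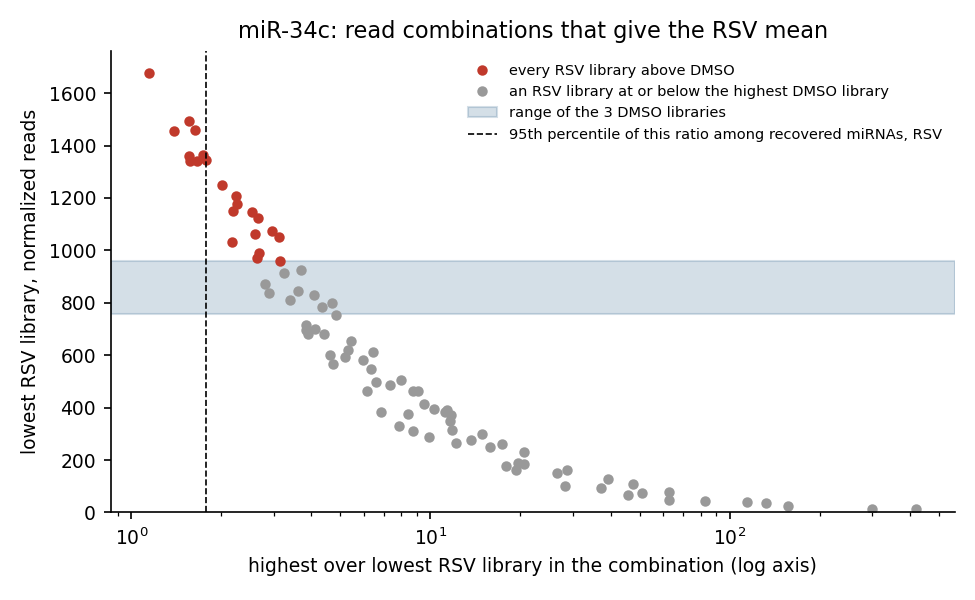
Each point is 1 of the 89 combinations of whole reads that give the RSV mean of bta-miR-34c, by the ratio of its highest to its lowest library (log axis) and its lowest library in normalized reads. The band is the range of the DMSO libraries, 758 to 958, and no combination with a ratio under 2.80 reaches into it. The dashed line is the 95th percentile of the same ratio, 1.78, over 71 other miRNAs.

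bta-miR-34a, the member encoded apart from both clusters and the most abundant, had a mean of 3552 normalized reads in RSV against 2585 in DMSO. The ratio was 1.37, a log2 ratio of 0.46 with a 95% binomial interval from 0.42 to 0.50 for counting error alone. For this miRNA 322 combinations of reads gave the RSV mean and 50 the DMSO mean. Where the highest library was held to 1.5 times the lowest, 12 RSV and 2 DMSO combinations remained, and each RSV library was above each DMSO library in 24 of the 24 pairings. Held to 2 times, this was so in 36 of 148 pairings. Whether the libraries of bta-miR-34a overlap was thus not settled.

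bta-miR-34b was near the limit of detection. Its RSV libraries held 14, 14 and 11 reads, or 9.08, 10.8 and 11.8 normalized reads (mean 10.6 ± 1.36, SD, n = 3), and its DMSO libraries 1, 5 and 8 reads, or 1.08, 6.07 and 11.0 (mean 6.04 ± 4.95, SD, n = 3). The groups overlapped, because the DMSO library of size factor 0.729 lay within the range of the RSV libraries. The log2 ratio was 0.71, and on leaving out any single library it took values from 0.28 to 1.34. The SD of single libraries was 0.92 on the log2 scale, which is not the error of a difference between means. A difference was not resolved at this depth and was not tested, and bta-miR-34b reached a mean of 10 in RSV only.

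bta-miR-449a was the single miR-449 member with more than a few reads. Its RSV libraries held 289, 188 and 167 reads, or 187, 145 and 179 normalized reads (mean 170 ± 22.2, SD, n = 3). Its DMSO libraries held 106, 119 and 93 reads, or 115, 145 and 128 normalized reads (mean 129 ± 14.8, SD, n = 3). The lowest RSV library, 145.3, lay just above the highest DMSO library, 144.5, and their 95% Poisson intervals, 125 to 168 and 120 to 173, covered each other. The log2 ratio was 0.40, and the difference was not tested. With library sizes from TMM, a trimmed mean of log ratios, the lowest RSV library was at 146 and the highest DMSO library at 148, so the separation of the groups was lost. Of 225 miRNAs with settled reads and a mean of 10 or more in 1 group, 19.6% lay above DMSO without overlap.

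bta-miR-449b and bta-miR-449c did not part the groups. bta-miR-449b had 7, 3 and 3 reads in RSV and 4, 3 and 1 in DMSO, with means of 3.36 ± 1.12 and 3.12 ± 1.55 normalized reads (SD, n = 3). bta-miR-449c had 8, 1 and 4 reads in RSV and 1, 3 and 3 in DMSO, with means of 3.41 ± 2.33 and 2.95 ± 1.63 (SD, n = 3). Their log2 ratios were 0.08 and 0.16, and both changed sign when single libraries were left out. A change of either miRNA was not resolved with 13 reads each in RSV and 8 and 7 reads in DMSO, and was not tested.

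Summed over the 6 members, the group means were 5562 normalized reads in RSV and 3589 in DMSO, a ratio of 1.55. In RSV this was 0.0838% of all miRNA reads, and in DMSO 0.0489%. Both shares are of a total that was lower in RSV than in DMSO, by a log2 ratio of −0.15. bta-miR-21-5p alone made up 36.1% of that total in RSV and 35.1% in DMSO. bta-miR-34a accounted for 49.0% of the rise of 1973 normalized reads and bta-miR-34c for 48.6%. The 2 abundant miR-34 members thus made up nearly all of the difference in nearly equal parts, although the ratio of bta-miR-34c was larger, and the level of bta-miR-34a relative to bta-miR-34c was 3.0 in DMSO and 1.95 in RSV. Relative to bta-miR-449a, bta-miR-34a stood at 20.8 times in RSV and 20.0 times in DMSO.

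Among all miRNAs the ratios were mostly small. Of 403 miRNAs whose mean reached 10 normalized reads in 1 group or both, 23 (5.71%) were past 1.5-fold higher in RSV and 15 (3.72%) past 1.5-fold lower. bta-miR-34c and bta-miR-34b were among the 23, the latter through its RSV mean alone. When both groups were rescaled to the same total, 40 were higher and 10 lower, against 23 and 15 before, and the log2 ratio was 1.22 for bta-miR-34c and 0.60 for bta-miR-34a. In the order of log2 ratios over the 403 miRNAs, bta-miR-34c ranked 7, bta-miR-34b 16, bta-miR-34a 39 and bta-miR-449a 50. The 4 members among the 403 had a log2 ratio above 0, as did 51.9% of the 403, but the family was selected on this contrast. bta-miR-449b and bta-miR-449c, at means under 10, were outside the 403 and had log2 ratios of 0.08 and 0.16. Among the 240 miRNAs with a mean of at least 100 in both groups, where the median absolute log2 ratio was 0.15, bta-miR-34c ranked first, bta-miR-34a 12 and bta-miR-449a 18.

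**Figure D3:**
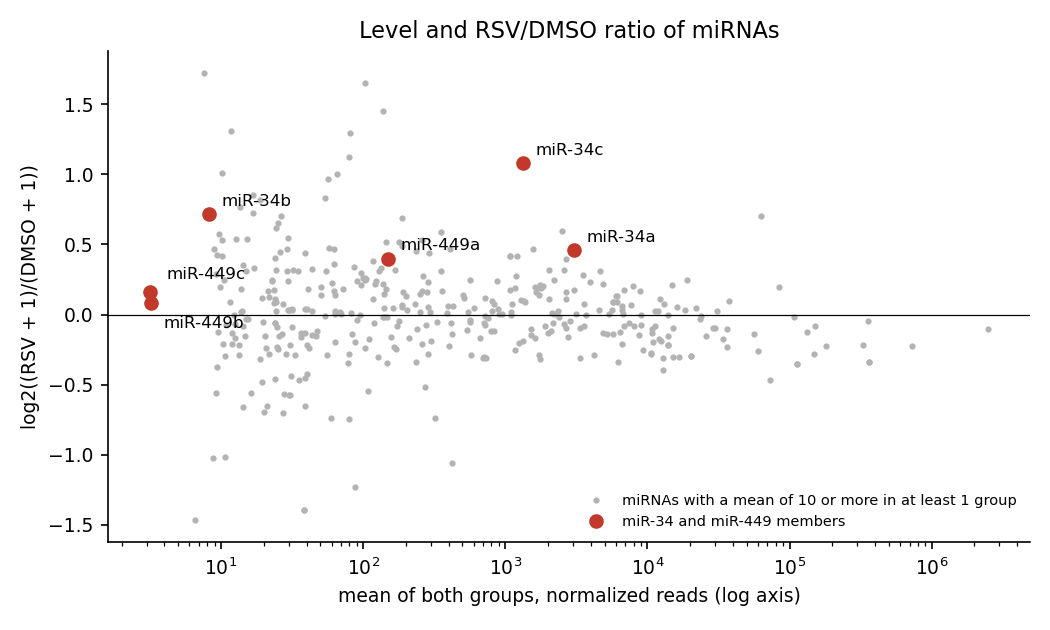
Mean of both groups in normalized reads (log axis) against log2((RSV + 1)/(DMSO + 1)) for 403 miRNAs (grey) and the 6 members (red). bta-miR-34c, at a log2 ratio of 1.08, stands above all other miRNAs to the right of it, while bta-miR-449b and bta-miR-449c lie near 0 at the low end.

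Among the 239 other miRNAs with a mean of 100 or more in both groups, the nearest to bta-miR-34c in ratio were bta-miR-381, with 78262 normalized reads in RSV, 48157 in DMSO and a log2 ratio of 0.70, bta-miR-215 with 0.69, bta-miR-432 with 0.59, bta-miR-431 with 0.59 and bta-miR-129 with 0.53. In the order of levels its neighbours were bta-miR-1839, with a log2 ratio of 0.10, and bta-miR-484, with −0.19. For bta-miR-34a the nearest ratios were those of novel_81, bta-miR-3956, bta-miR-328, bta-miR-487a and bta-miR-92b, between 0.44 and 0.49. Its neighbours in level, bta-miR-339a and novel_49, had log2 ratios of 0.01 and 0.18. For bta-miR-449a the nearest were bta-miR-495, bta-miR-877, bta-miR-6529a, bta-miR-425-5p and bta-miR-6529b, between 0.38 and 0.42, and its neighbours in level, bta-miR-1306 and bta-miR-2285b, had −0.16 and −0.02. The neighbours of bta-miR-34b, bta-miR-6520 and bta-miR-615, had 0.02 and −0.29.

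Profiles over the 6 libraries could be compared for the 2 members with settled reads and a mean of at least 10 in 1 group. Pearson's r of log2(normalized reads + 1) was highest with bta-miR-449a for bta-miR-3957 (0.97), bta-miR-2400 (0.96), bta-miR-1343-3p (0.94), bta-miR-412 (0.94) and bta-miR-30b-3p (0.93). With bta-miR-34b it was highest for bta-miR-380-5p (0.98), bta-miR-20b (0.91), bta-miR-2484 (0.88), bta-miR-2422 (0.88) and novel_672 (0.86). bta-miR-34b reached the mean of 10 in RSV only, and its DMSO libraries held 1, 5 and 8 reads, so its r values rest on few reads. The r values named for both members were picked as the highest. For each member they are the largest of 224 values over the same 6 libraries, whose 2 groups and size factors all miRNAs share. Among the members themselves, over the same 6 libraries and few reads, r of bta-miR-34b was 0.64 with bta-miR-449a, 0.47 with bta-miR-449c and −0.53 with bta-miR-449b. Within the miR-449 cluster r was 0.59 between bta-miR-449a and bta-miR-449c, 0.30 between bta-miR-449a and bta-miR-449b, and 0.02 between bta-miR-449b and bta-miR-449c.

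The DMSO library of size factor 0.922 was the lowest of its group for 4 of the 5 members with settled DMSO reads, bta-miR-34b, bta-miR-34c, bta-miR-449a and bta-miR-449c. Over 204 miRNAs with a mean of at least 10 in both groups it was the lowest for 28.9%. bta-miR-34b and bta-miR-449c held 1 read each in this library. Without this library the log2 ratio of bta-miR-34c was 0.99. In RSV the library of size factor 1.29 was the lowest for bta-miR-449a, bta-miR-449b and bta-miR-449c, and over the 204 miRNAs for 35.8%. There bta-miR-449b held 3 reads and bta-miR-449c held 1. bta-miR-34b, the other of the 4 members with settled RSV reads, was lowest in the RSV library of size factor 1.54.

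The miRNAs linked to p53 outside the family were compared as lists. Of 10 miRNAs whose genes p53 is known to switch on, 9 were in the table, 7 had a mean of at least 10 in 1 group, and their median log2 ratio was 0.08 against 0.00 for all miRNAs with such a mean in both groups. bta-miR-215 was past 1.5-fold, with RSV libraries at 212, 195 and 287 normalized reads and DMSO libraries at 156, 131 and 143. The RSV and DMSO libraries of bta-miR-215 did not overlap, and its log2 fold change was 0.66 (SE 0.16, adjusted p = 0.033, limma voom with Benjamini-Hochberg adjustment). Over all 213 miRNAs fitted, limma voom called 20 (9.39%), of which 11 (5.16%) were higher and 9 (4.23%) lower in RSV. Without the RSV library of size factor 1.54 the adjusted p of bta-miR-215 was 0.055 by limma voom, and without each DMSO library in turn it lay between 0.11 and 0.14, with log2 fold changes from 0.59 to 0.72.

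The other members of that list gave no such value. bta-miR-192 and bta-miR-194, whose genes p53 also switches on, had authors' means of 1554 and 1067 normalized reads in RSV and 1896 and 1270 in DMSO, with log2 ratios of −0.29 and −0.25. For bta-miR-107 the log2 ratio was 0.21. Of the miR-200 group, bta-miR-200a, bta-miR-200b and bta-miR-200c overlapped between the groups at 8.50 to 35.3 normalized reads per library, with adjusted p-values of 0.85, 0.39 and 0.82 (limma voom). Altogether, 1 of the 4 miRNAs of the list that could be fitted passed the test, against 9.39% of all 213 miRNAs fitted. So small a count does not set the list apart.

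A list of 5 miRNAs was made for processing from the primary transcript raised by p53 bound to Drosha. Whether this holds for each of them was not tested. None was past 1.5-fold, against 5.71% higher and 3.72% lower over the 403 miRNAs, and so small a count does not set the list apart. The 5 were bta-miR-15a, bta-miR-16a, bta-miR-16b, bta-miR-143 and bta-miR-145, with log2 ratios between −0.05 and 0.03. Among them bta-miR-15a could be fitted (adjusted p = 0.90, limma voom). Of 4 miRNAs reported to bind the mRNA of p53 itself, bta-miR-125b, bta-miR-504, bta-miR-25 and bta-miR-30d, none was past 1.5-fold either, with log2 ratios between −0.15 and 0.11, and bta-miR-504 had an adjusted p of 0.56 (limma voom). Beside the same shares of 5.71% and 3.72%, this count does not set that list apart.

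**Figure D4:**
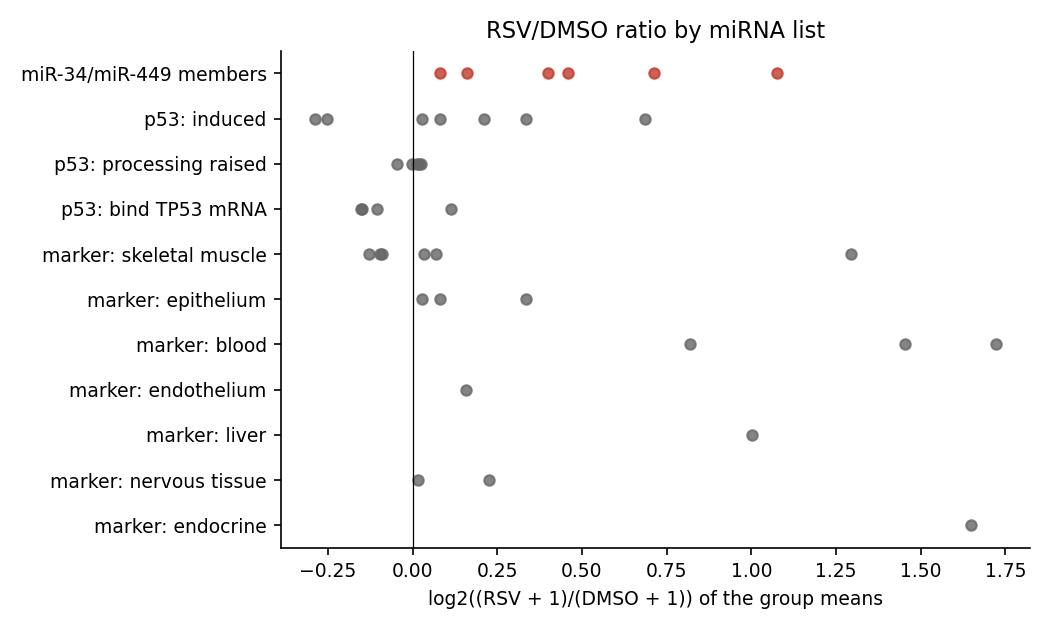
log2((RSV + 1)/(DMSO + 1)) of the group means for the 6 members (red) and for the miRNAs of each list with a mean of at least 10 in 1 group (grey, 1 point per miRNA). The p53-linked lists lie between −0.29 and 0.69, and the blood, liver and endocrine markers shown lie above 0.8, while the blood marker bta-miR-223, with a log2 ratio of −2.53 and means of 0 in RSV and 4.78 in DMSO, is not shown because its means are under 10.

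Marker miRNAs were read beside these values. The muscle miRNAs bta-miR-1, bta-miR-133a, bta-miR-133b and bta-miR-206 were abundant, from 5550 to 139464 normalized reads, with log2 ratios between −0.13 and 0.07. bta-miR-208b had a log2 ratio of −0.09, and bta-miR-499, which is carried in an intron of a slow myosin gene, rose by a log2 fold change of 1.27 (SE 0.28, adjusted p = 0.025, limma voom). The epithelial markers bta-miR-200a, bta-miR-200b, bta-miR-200c, bta-miR-141 and bta-miR-429, of interest because miR-449 is known from epithelia, had summed levels from 59.7 to 76.5 normalized reads per RSV library and from 52.2 to 79.6 per DMSO library. For the sum of these markers alone, that range is below the level of bta-miR-449a in each library, and it overlapped between the groups. bta-miR-205, which was not in the marker list, was not part of the sum. It had 10.4 to 60.9 normalized reads per RSV library and 35.2 to 64.0 per DMSO library.

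Markers of other tissues differed between single libraries. bta-miR-122, a liver miRNA, had 200, 26.3 and 38.5 normalized reads in the RSV libraries of size factors 1.54, 1.29 and 0.935, against 17.0 to 87.8 in DMSO. bta-miR-451, a miRNA of red blood cells, had 66.8, 463 and 81.3 in the same RSV libraries against 53.4 to 97.4 in DMSO. The blood markers bta-miR-142-3p, bta-miR-142-5p, bta-miR-451 and bta-miR-223 had summed levels from 72.7 to 465 per RSV library and from 65.6 to 130 per DMSO library, with bta-miR-223 at 0 in the RSV libraries and from 1.08 to 9.60 in the DMSO libraries. bta-miR-142-3p, with means of 12.2 in RSV and 3.0 in DMSO, reached a mean of 10 in RSV only. bta-miR-142-5p had 4.54, 2.32 and 66.3 in RSV, and its log2 ratio of the means, 0.82, and its voom estimate, −0.81, had opposite signs. The miRNAs bta-miR-126-3p of endothelium and bta-miR-9-5p and bta-miR-9-3p of nervous tissue had log2 ratios of 0.16, 0.01 and 0.23. At means under 10, bta-miR-126-5p of endothelium had −0.06 and bta-miR-124a of nervous tissue went the other way, with −1.71. The means of bta-miR-124a were 0.36 in RSV and 3.44 in DMSO, from 0, 0 and 1 reads and 6, 2 and 1 reads. bta-miR-375, a miRNA of endocrine cells, rose by a log2 fold change of 1.58 (SE 0.34, adjusted p = 0.025, limma voom). The calls of bta-miR-375 and bta-miR-499 were lost without any 1 of the DMSO libraries, with adjusted p-values from 0.099 to 0.15 (limma voom). Their log2 fold changes then lay between 1.43 and 1.76 for bta-miR-375 and between 1.19 and 1.36 for bta-miR-499. With libraries of either group left out, they ranged from 1.24 to 1.77 and from 0.98 to 1.42. Both were lowest without the RSV library of size factor 1.29. The high values of bta-miR-122, bta-miR-451 and bta-miR-142-5p fell in 3 different RSV libraries, and bta-miR-449a was 187, 145 and 179 in these libraries. The part of these markers in the values of the miR-34 and miR-449 members was not tested.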

How the data were processed

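miRNA of 3 RSV and 3 DMSO cultures was sequenced as single-end reads. Per the study's methods and the submitters' processing notes, the authors mapped the tags to UMD_3.1.1 (bosTau8) with Bowtie 0.12.9, named known miRNAs by miRBase and compared the groups with DESeq. The deposited miRNA values are the authors' group means of reads divided by size factors. The deposited log2 fold changes, p-values and adjusted p-values are the authors' comparison and were not used. The mRNA part was not used, because the gene table pairs none of its identifiers with a name, and mature sequences and shared seeds were not analysed here. Values per sample that the study lists in a supplement were not used here.

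From the digits of each mean the whole reads of its libraries were sought, up to 1000 normalized reads and for every member, keeping the means with exactly 1 combination. This settled 587 miRNAs in both groups, 14738 to 31073 reads per library. These are not the full depth, since miRNAs above the search limit are missing. Ratios used a pseudocount of 1 and a minimum mean of 10 in 1 group. limma voom (limma 3.58.1, R 4.3.3) was fitted to the settled reads of 213 miRNAs with a mean of at least 10 over both groups, with library sizes from the size factors, and with Benjamini-Hochberg adjustment over all of them. 59 of them had an unadjusted p under 0.05. Search and fit were tested on simulated data. Intervals for single libraries are exact Poisson intervals, those for bta-miR-34a and bta-miR-34c are exact binomial (Clopper-Pearson) intervals on reads estimated from the group means, and all cover counting error only. The remaining computing was done in Python 3.11.15 with numpy 2.4.6, scipy 1.17.1, pandas 2.3.3 and matplotlib 3.10.9.

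Members and lists were chosen with earlier results of these data known. Named are the members, the p53-linked miRNAs, the markers, the 5 miRNAs nearest in ratio or profile to a member, and its neighbours in level. Levels near a few reads, and reads that similar miRNAs could share, limit the precision.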

Additional observations from a re-analysis of the deposited data

How the results depend on the processing

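No paired analysis was possible because the group mean columns used here, and the libraries recovered from them, carry no replicate number. Changes of the pseudocount, equal totals and centring on the median miRNA could not turn the sign of the members' log2 ratios. Leaving out single libraries could, and bta-miR-449b and bta-miR-449c then fell below 0, down to −0.20 and −0.16. With both groups rescaled to the same total, bta-miR-34a moved to 0.60 and bta-miR-34c to 1.22. Without each DMSO library in turn bta-miR-34c lay between 0.99 and 1.16. TMM was added for the members after seeing the data and gave bta-miR-449a a log2 ratio of 0.36. The counts past 1.5-fold, 23 higher and 15 lower, became 13 and 8 with a pseudocount of 10, 80 and 64 without a minimum mean, and 9 and 4 with a minimum mean of 100 in 1 group. Equal totals gave 40 and 10, so 80% of these miRNAs were higher, against 60.5% before. The totals rest in large part on bta-miR-21-5p, with 36.1% in RSV and 35.1% in DMSO. The limma voom counts of 11 higher and 9 lower ranged from 1 to 13 and from 4 to 10 when each library was left out. The higher calls fell to 6 without the RSV library of size factor 1.54, and to 1, 4 and 1 without the DMSO libraries of 0.922, 0.823 and 0.729, where the lower calls were 4, 4 and 5. Fewer libraries enter these fits. Depth limits bta-miR-34b, bta-miR-449b and bta-miR-449c, and for bta-miR-34a and bta-miR-34c in RSV the group mean does not settle the single libraries, so their spread was not analysed here.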
